A study of Homo sapiens with 4 samples.

Results

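The intervals called in the input libraries of a pair of UACC-812 derivatives were compared with each other. UACC-812 is an established line from a breast tumour. By their labels, 1 derivative overexpresses c-MYC (UACC-812 C-MYC overexpression cell line) and the other is the UACC-812 flag cell line. An input library is chromatin sequenced without enrichment by an antibody. Both samples are titled input and were taken as such, although another label of each names an antibody to RNA polymerase II. The sources used here do not give the vector, the number of clones or any treatment of either line. All intervals of the input lists were taken: 86 from the c-MYC line and 119 from the flag line, 205 of the 391 intervals of the series. Intervals were paired by an overlap of at least 1 bp on the same chromosome. Each line gave 1 input library, so no difference between them could be tested, and every value describes these 2 libraries.

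An input library is expected to cover single-copy sequence evenly. Intervals called in it commonly mark sequence present in more copies than the reference shows, such as satellite repeats beside centromeres, ribosomal DNA, and nuclear copies of mitochondrial genes onto which reads of mitochondrial DNA can be placed. Amplified genes and introduced sequences can also stand out. These are general properties of input libraries and were not tested here.

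The lists shared 51 regions, each made of exactly 1 interval from either list. These were 59.3% of the c-MYC line intervals (51 of 86, 95% Clopper-Pearson interval 48.2 to 69.8%) and 42.9% of the flag line intervals (51 of 119, 33.8 to 52.3%). A further 35 intervals were listed in the c-MYC line input alone and 68 in the flag line input alone. These confidence intervals cover counting error only. All 51 pairs had the same nearest gene in both lists, and 50 had the same locus annotation. The exception was a region at MTND5P11, a pseudogene of a mitochondrial respiratory chain gene, annotated as a transcript end in the c-MYC line list and as an exon in the flag line list. The summits of a pair lay a median of 5 bp apart, and 41 of 51 lay within 50 bp. The widest gap, 719 bp, was nearest the pseudogene SNX18P25 on chromosome 4.

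Of the 35116 promoter windows in the RefSeq table used here, which does not cover every gene, 1 was touched by an input interval. It belongs to the uncharacterised gene LOC101928626 on chromosome 1 and is shown because it lies at the mitochondrial pseudogene block of highest pileup. The window is chr1:628960-629259 (GRCh38.p14, minus strand), printed 5′ to 3′ with the 221 bases inside the c-MYC line interval in capitals. The flag line interval covered 226 of its 300 bases.

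LOC101928626 promoter window: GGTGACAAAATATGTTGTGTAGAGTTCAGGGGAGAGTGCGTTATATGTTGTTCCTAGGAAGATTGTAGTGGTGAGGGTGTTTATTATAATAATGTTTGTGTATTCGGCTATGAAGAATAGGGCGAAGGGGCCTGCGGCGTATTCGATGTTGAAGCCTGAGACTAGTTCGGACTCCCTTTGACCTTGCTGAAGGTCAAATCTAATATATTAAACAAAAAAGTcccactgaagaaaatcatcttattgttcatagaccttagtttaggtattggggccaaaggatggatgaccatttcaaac

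The E-box CACGTG, the palindromic site that c-MYC is known to bind with MAX and which reads the same on both strands, did not occur in this window. It was present in 2548 of all 35116 RefSeq promoter windows (7.26%).

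The intervals also touched 1 microRNA locus, MIR4485, whose hairpin at chr11:10508270-10508326 (GRCh38.p14, minus strand) lies inside MTRNR2L8, a nuclear copy of the mitochondrial ribosomal RNA gene. It is shown because the c-MYC line interval (10507704 to 10508287) ended within the hairpin and the flag line interval (10507712 to 10508394) spanned it. The seed, bases 2 to 8 of the mature form, is in capitals.

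MIR4485 hairpin: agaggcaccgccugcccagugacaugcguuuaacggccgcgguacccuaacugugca
hsa-miR-4485-3p: uAACGGCCgcgguacccuaa

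The deposited pileups, the number of fragments stacked at a summit, carry no stated scaling. Their median was 38 (13 to 447) in the c-MYC line list against 25 (11 to 566) in the flag line list. A relative depth could nevertheless be read from the lists. The deposited p of every interval equalled a Poisson tail of its pileup over the background implied by its fold, within 0.000317 (c-MYC line) and 0.000231 (flag line) on the -log10 scale. This implied background had a lowest value that recurred, 1.53 at 13 intervals of the c-MYC line against 0.689 at 9 of the flag line input. MACS2, the caller named in the submitters' processing notes, is known to use a library-wide background wherever no local one exceeds it. The ratio of these lowest values, 2.22, was therefore used as the relative depth, c-MYC line over flag line. The narrowest intervals were 286 and 283 bp.

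**Figure D1:**
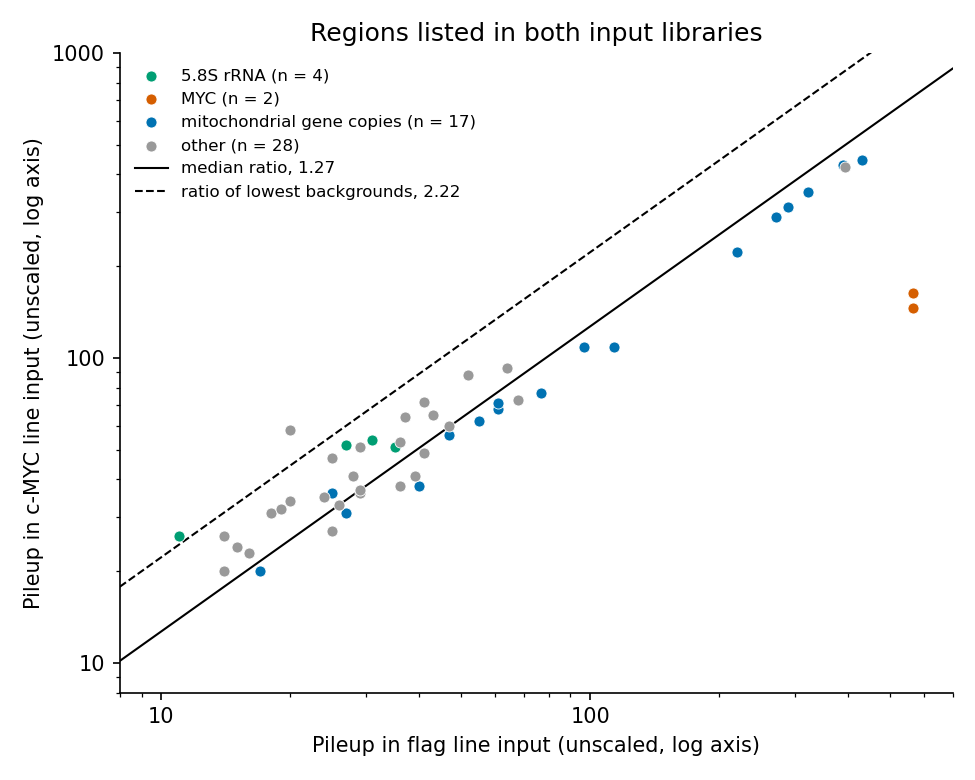
Unscaled pileup of the 51 shared regions in the flag line input (x axis) and the c-MYC line input (y axis), both on log axes, 1 point per region, coloured by the kind of region. The MYC points lie far below both lines, 16 of the 17 mitochondrial gene copies lie below the median ratio of 1.27, and all points but 2 lie below the dashed line of the relative depth, 2.22.

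Pileup was higher in the c-MYC line input in 46 of the 51 shared regions, lower in 4 and equal in 1. The median ratio of c-MYC line over flag line was 1.27 (quartiles 1.08 and 1.64, range 0.258 to 2.90). More than 2-fold from that median lay 3 of 51 regions (5.88%), 2 of them lower in the c-MYC line (3.92%) and 1 higher (1.96%). The low ones were the MYC pair. The high one lay on chromosome 22 nearest the pseudogene AC116618.1. Set against the relative depth of 2.22 instead, 16 of 51 regions (31.4%) were more than 2-fold lower in the c-MYC line and 0 (0%) more than 2-fold higher. On that scale the ratio was above 1 in 2 regions, nearest AC116618.1 and the 5.8S ribosomal RNA gene RNA5-8SN5. The order of the regions is the same on both scales.

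MYC, which encodes the transcription factor that the c-MYC line is labelled as overexpressing, had the ratio farthest from the median among the 51 shared regions, and its pileup was lower in the overexpressing line. Regions listed in 1 library alone have no ratio and are not part of that ranking. Both intervals lie inside the gene on chromosome 8, which the files place at 127735434 to 127741434. The files annotate both as transcript ends, although the upstream one ends well before the end of the gene. Whether either interval matches an exon was not tested. The upstream one (127738213 to 127739092 in the c-MYC line list) had a pileup of 163 in the c-MYC line input against 566 in the flag line input. The downstream one (127740294 to 127741042) had 146 and 566. The flag line value was thus identical at both intervals, and it was the highest pileup of that list. Whether the caller capped the pileup there was not tested, so 566 may be a limit and not a measured height. The ratios and multiples below carry the same limit. The flag line intervals were also wider, at 1031 against 880 bp upstream and 822 against 749 bp downstream. The unscaled ratios were 0.288 and 0.258, and divided by the relative depth they were 0.130 and 0.116. In units of each library's lowest background, the pileup at MYC was 106 and 95.3 in the c-MYC line against 821 at both intervals in the flag line. The background the caller used around them was 14.4 and 14.2 times the lowest in the c-MYC line against 107 times at both in the flag line. No control library is stated, so this background may include the reads of the intervals themselves and is no separate measurement. The authors' folds over that local background were 7.12 and 6.46 in the c-MYC line against 7.59 and 7.61 in the flag line. The difference in height does not show in them. They rest on the same pileups and local backgrounds, so their closeness does not show equal height over local background.

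A second locus on the same arm of chromosome 8 was listed in the c-MYC line input alone. It holds intervals at 127219067 to 127219572 (506 bp) and 127219888 to 127220941 (1054 bp). The files place both at CASC19, a long non-coding RNA gene, with the former 59 bp upstream of a TSS (transcription start site). In the RefSeq table the former overlaps CCAT1, a long non-coding RNA gene of the region upstream of MYC, and CASC19 lies 21440 bp away. Pileups were 52 and 51 over implied backgrounds of 18.0 and 19.3, which are 11.7 and 12.6 times the lowest background of the library. Those local backgrounds were close to the ones at MYC in the same library, 22.0 and 21.8, with 517272 bp between the loci. At both loci they may include the reads of the intervals themselves. The folds of 2.80 and 2.56 were among the lowest of the list. Moved to the depth of the flag line input, neither interval reached the lowest -log10 p listed there, with 5.35 and 4.39 against 8.998. The same step also failed 6 shared intervals that the flag line list does hold. It therefore cannot tell why the intervals at CASC19 were absent, and their absence does not show lower coverage.

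Of the 11 genes fixed for the region around MYC, 2 carried an interval in the c-MYC line input (MYC and CCAT1), against 1 in the flag line input (MYC). Over all 59679 RefSeq genes on these chromosomes, 0.0637% overlapped an interval of the c-MYC line and 0.106% one of the flag line. The list was drawn up around MYC with its intervals known, so its count is no separate evidence. PVT1, the long non-coding RNA gene just beyond MYC, lay 53482 bp and 53434 bp from the nearest interval in the c-MYC and flag line lists. POU5F1B, a retrogene of the pluripotency factor OCT4, lay 192506 and 320893 bp away. None of the 13 genes fixed around ERBB2, the receptor gene amplified in UACC-812, carried an interval in either list, which at those shares is the count most lists of this size would give. The nearest interval lay 4.27 Mb from ERBB2 in both. Of the loop genes in the title of the series, MYC alone carried an interval in either input. A gene that carries no listed interval is not thereby shown to have normal copy number.

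Nuclear copies of mitochondrial genes made up much of the shared set and none of the intervals of the c-MYC line alone. By nearest gene name they were 12 of the 51 shared regions (23.5%, 12.8 to 37.5%), 0 of the 35 c-MYC line intervals (0%, 0 to 10.0%) and 5 of the 68 flag line intervals (7.35%, 2.43 to 16.3%). Of the flag line intervals counted by name, 1 was intergenic, 178780 bp from MTCO1P6, with no RefSeq mitochondrial copy within 5 kb. Adding intervals with such a copy within 5 kb to those counted by name raised the shared count to 17 (33.3%). It raised the flag line count to 6 (8.82%) and left the c-MYC line count at 0. Among the added shared regions were those nearest AL669831.3, MLPH, MIR4485 and AC132825.6 in the files. The interval inside MLPH, a gene of melanosome transport, overlapped the pseudogene MTND5P46.

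The pileups of the 17 copies were nearly the same in both libraries before scaling. The highest were at MTCO3P12, a cytochrome c oxidase pseudogene on chromosome 1, with 447 in the c-MYC line against 431 in the flag line, and at MTND2P28 beside it, with 429 and 389. On chromosome 5, the copies of subunits of respiratory complex I at MTND4LP30 and MTND5P11 had 312 and 290, 291 and 271, and 223 and 220 (c-MYC and flag lines). Smaller copies followed the same pattern, with 109 and 114 at MTND3P19, 77 and 77 at MTCYBP35 and 20 and 17 at MTRNR2L12. The median ratio was 1.10 (0.950 to 1.44), or 0.496 (0.428 to 0.648) after division by the relative depth. So relative to library-wide background, all 17 copies were lower in the c-MYC line input, and 16 of them had a scaled ratio under 0.6. These copies can share reads with each other and with mitochondrial DNA, so they are not 17 separate measurements. Being lower on this scale was not particular to the copies, because only 2 of all 51 shared regions had a scaled ratio above 1. Of the 28 other regions treated next, 10 were also under 0.6 and 18 were not.

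The other 28 shared regions, away from MYC, mitochondrial copies and 5.8S ribosomal RNA genes, had a median ratio of 1.46 (1.05 to 2.90) and a scaled median of 0.658 (0.473 to 1.31). Their low end coincided with the mitochondrial copies. It held the intergenic region on chromosome 3 (93470167 to 93470988, nearest the U6 small nuclear RNA pseudogene RNU6-488P), which had the highest fold of both lists, 19.0 in each. Its pileup was 422 in the c-MYC line against 392 in the flag line, a scaled ratio of 0.485. The regions nearest AC090531.1 (73 and 68), LINC00399 (41 and 39) and AL512658.1 (38 and 36) and that inside PYY (49 and 41), the gene of the gut hormone peptide YY, also had scaled ratios from 0.473 to 0.538.

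Several of the higher ratios were in intergenic regions that lay in clusters on the same chromosome, though the ratio differed within a cluster. Nearest the pseudogene SNX18P25 on chromosome 4, pileups were 72 and 41, 47 and 25, and 31 and 18 at 3 of 4 regions, and the other had 27 and 25. Nearest EMB on chromosome 5, a cell adhesion gene at least 744826 bp away, they were 65 and 43, and 51 and 29, while the remaining region had 36 and 29, below the median ratio of all shared regions. KCNE1B on chromosome 21 was the nearest gene of a region with 88 and 52, and LINC01691 on chromosome 1 of a region with 64 and 37. The 4 regions nearest 5.8S ribosomal RNA genes, on chromosomes 14, 21 and 22, had a scaled median of 0.825 (0.656 to 1.06). Those on chromosomes 14 and 22 were intergenic, 35570 to 36914 bp from the gene, and that on chromosome 21 lay 7568 bp away. Whether they hold ribosomal DNA was not tested. The highest ratio of all was nearest AC116618.1, with pileups of 58 and 20 and a scaled ratio of 1.31. No replicate library was at hand to give the spread of such ratios.

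**Figure D2:**
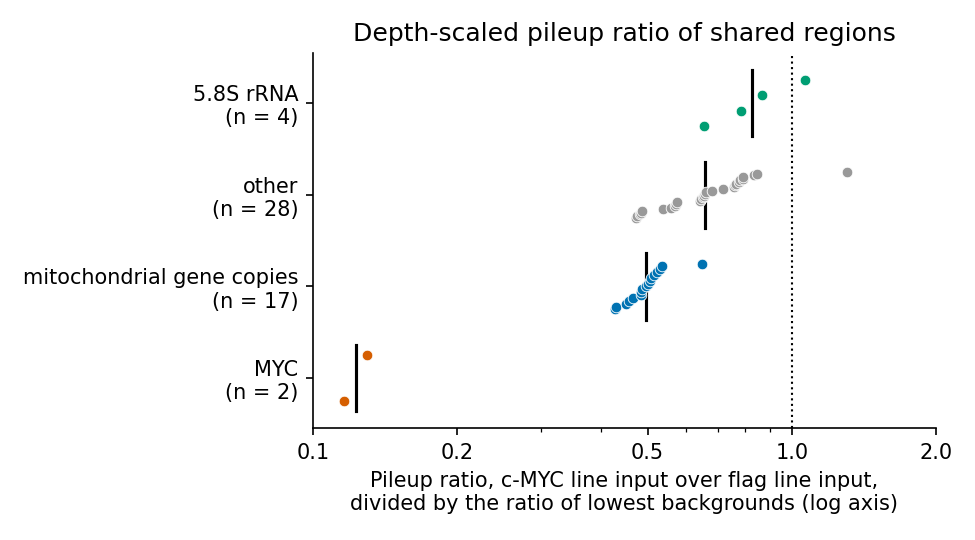
Pileup of the c-MYC line over that of the flag line, divided by the relative depth of 2.22, on a log axis, with 1 point per shared region and a vertical bar at the median of each kind. Within a row, points are stacked in order of their ratio. MYC lies near 0.123, the mitochondrial gene copies near 0.496, the other regions near 0.658 and the regions nearest 5.8S rRNA genes near 0.825. The dotted line marks a ratio of 1.

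Shared intervals were the tallest and widest, which their definition favours, because a low interval is more easily missed in the other list. Their median pileup was 53 in the c-MYC list against 37 in the flag list. It was 24 (13 to 70) for intervals of the c-MYC line alone and 19 (12 to 57) for those of the flag line alone. Median widths were 537 and 517 bp for the shared intervals, 341 bp for the c-MYC line alone and 421 bp for the flag line alone. The shared interval was wider in the c-MYC line in 42 of 51 pairs, by a median of 10 bp over all pairs.

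Widths of the intervals of the flag line alone fell into 2 bands. Under 320 bp were 31 of the 68, with a median pileup of 16, and from 480 to 560 bp were 34, with a median pileup of 25. Only 3 lay between the bands, and 0 above them. The intervals of the c-MYC line alone were under 320 bp in 16 of 35, in the upper band in 6, between the bands in 11 and above them in 2.

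**Figure D3:**
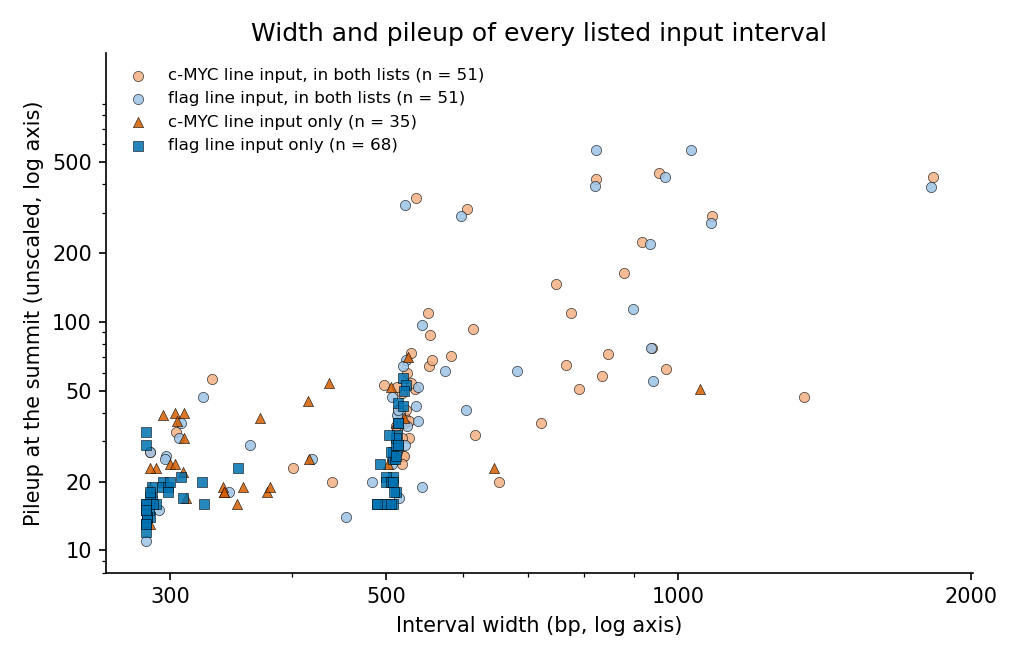
Width (x axis, bp) against summit pileup (y axis, unscaled) of all 205 input intervals, both on log axes, with 1 symbol per interval. Intervals of the flag line alone (squares) gather at widths of 283 to 320 bp and 480 to 560 bp, with 3 of 68 between the bands. Of those of the c-MYC line alone (triangles), 16 of 35 are under 320 bp and 11 lie between.

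In units of each library's lowest background, the intervals of the flag line alone stood higher than those of the c-MYC line alone. Their median pileup was 27.6 times the lowest background (17.4 to 82.7), against 15.7 times (8.49 to 45.7) in the c-MYC line, and 10 of the 68 exceeded the highest of the 35. A shallower library needs a higher multiple for an interval to be listed, which raises the flag line values. Each interval was then moved to the depth of the other library, by scaling its pileup and background with the relative depth, and its Poisson p was set against the lowest -log10 p listed there. For the flag line intervals, scaling up can only raise the -log10 p above the 8.35 of the c-MYC line list, so that direction carries no information. Of the 35 intervals of the c-MYC line alone, 9 reached the 8.998 of the flag line list (25.7%), against 45 of its 51 shared intervals (88.2%). The other 6 shared intervals are in the flag line list all the same. Scaled this way, shared pileups were a median of 0.571 of those observed in the flag line, so the step cannot settle single intervals. Scaling down lowers the -log10 p of every interval, and the low ones are the more easily lost. The step assumes that the same settings were used for both lists.

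The 8 tallest intervals of the flag line alone had pileups of 33 to 57. With 57, the highest pileup was on chromosome 7 (11443908 to 11444428) in an intron of THSD7A, with the antisense gene AC004160.2 nearest. Next was an interval 498 bp upstream of a TSS of CDH11, a mesenchymal cadherin gene (chromosome 16, 65124529 to 65125052), with 53. On chromosome X an interval 57556 bp from RAP2C, a small GTPase gene, and in no RefSeq coding gene, had 50. The next were an intergenic interval 13601 bp from the heat shock protein pseudogene HSP90B3P, with 44, and an interval inside NME7, a gene of the nucleoside diphosphate kinase family, with 43. IFIT3, an interferon-induced gene, was nearest to an interval of 36 in an intron of LIPA, which encodes lysosomal acid lipase. The remaining pair of the 8 highest were mitochondrial copies, MTCO1P21 with 36 and MTRNR2L8 with 33. Scaled up by the relative depth, the 6 that are not mitochondrial copies would have pileups of 127, 118, 111, 97.8, 95.5 and 80.0, over backgrounds of 3.46 to 6.22. The lowest pileup listed in the c-MYC line input was 17 at its lowest background of 1.53, which is below those. These 6 were picked as the tallest of the intervals absent from the other list. Scaling up carries no information, as said above, so the scaled pileups do not show lower coverage in the c-MYC line.

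Among the intervals of the flag line alone, 15 of 68 lay in the body of a RefSeq coding gene (22.1%, 12.9 to 33.8%), against 2 of 35 for the c-MYC line alone (5.71%, 0.700 to 19.2%) and 13 of 51 shared regions (25.5%, 14.3 to 39.6%). Over the whole lists the shares were 28 of 119 (23.5%) in the flag line and 15 of 86 (17.4%) in the c-MYC line. The share of the genome inside such bodies was not computed, so no excess is shown. Of the 15 in the flag line alone, 13 were annotated as introns. Besides THSD7A, NME7 and LIPA they included introns of XPC, a DNA repair gene (pileup 27), NR3C1, the glucocorticoid receptor gene (27), and ZFYVE16 (25). NOP58, which encodes a nucleolar protein, had 23, DLG2, a synaptic scaffold gene, 32, and REV3L, the catalytic subunit gene of DNA polymerase zeta, 19. MTAP, a methionine salvage gene close to CDKN2A, had 16. The 2 of the c-MYC line were introns of FANK1 (19) and TTC28 (23).

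The intervals of the c-MYC line alone lay mostly nearest pseudogenes. A pseudogene was nearest in 25 of 35 (71.4%), against 24 of 68 for the flag line alone (35.3%) and 25 of 51 shared regions (49.0%). Coding genes were nearest in 3 of 35 (8.57%, 1.80 to 23.1%), 20 of 68 (29.4%, 19.0 to 41.7%) and 14 of 51 (27.5%, 15.9 to 41.7%). Intergenic annotation covered 25 of 35 (71.4%, 53.7 to 85.4%), 38 of 68 (55.9%, 43.3 to 67.9%) and 29 of 51 (56.9%, 42.2 to 70.7%). The 95% intervals of the 3 intergenic shares overlapped. Long non-coding RNA genes were nearest in 3 of 35, 13 of 68 and 4 of 51.

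The c-MYC line intervals also clustered. Of the 35, 17 had another of the 35 within 100 kb, against 0 of the 68 of the flag line alone and 24 of the 51 shared regions in the c-MYC line. On chromosome 1, 5 intervals nearest the pseudogene AC242852.1 lay within 61.2 kb (143195234 to 143256400), with pileups of 17 to 19 and no flag line interval among them. Nearest FP325313.1 on chromosome 16, 3 intervals with pileups of 27 to 37 lay around a shared region. Moved to the flag line depth, none of the 5 nearest AC242852.1 reached the lowest -log10 p listed there, but all 3 nearest FP325313.1 did. As said above, that step cannot settle single intervals.

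DUX4-like genes, copies of the D4Z4 repeat gene DUX4, were nearest to 3 intervals of the c-MYC line and 2 of the flag line. DUX4L20 on chromosome 10 was shared, with pileups of 41 and 28. The others were listed in a block of 29.2 kb on chromosome Y (11305141 to 11334386). How reads with several matches were placed is not given, so these positions do not show that the lines differ in Y sequence. There the c-MYC line list held DUX4L16 (70, the highest pileup of the intervals of that line alone), DUX4L18 (54) and AC134882.1 (45), and the flag line list held DUX4L19 (29), at positions that did not overlap. Moved to the flag line depth, DUX4L16 and DUX4L18 reached the lowest -log10 p listed there and AC134882.1 did not. This does not show that coverage at them was lower in the flag line. Ribosomal RNA genes were nearest in 3 intervals of the c-MYC line alone, 3623 to 38792 bp away, and 0 of the flag line alone. Genes named for small nuclear RNAs were nearest in 1 (RNU6-465P) and 4 (the U7 locus on chromosome 3, RNU6-573P, RNU6-699P and RNU7-34P). All 5 of these were intergenic, lying between 6774 bp (RNU6-465P) and 183236 bp (RNU6-573P) from a TSS.

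Few input intervals lay at the start of a coding or long non-coding RNA gene. Within 1 kb of such a TSS were 2 of 86 in the c-MYC line list (2.33%, 0.283 to 8.15%) and 5 of 119 in the flag line list (4.20%, 1.38 to 9.53%). MTRNR2L12, annotated as coding, was shared. The c-MYC line list added CASC19. The flag line list added CDH11, MTRNR2L8, the amylase gene AMY2A (pileup 13) and the antisense gene AC009950.1 (16).

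Intervals of the flag line alone were spread over 21 chromosomes, those of the c-MYC line alone over 13, and the shared regions over 20. Chromosomes 2, 3 and 4 held 7, 7 and 8 intervals of the flag line alone and 1, 0 and 0 of the c-MYC line alone. Chromosomes 6, 7 and X held 4, 6 and 5 of the flag line and 0 of the c-MYC line. The c-MYC line alone had more on chromosome 8, with 5 against 2, on chromosomes 16 and 17, with 3 and 4 against 1 each, and on chromosome Y, with 4 against 2. It also had more on chromosomes 1 (6 against 5), 21 (1 against 0) and 22 (2 against 1). Neighbouring intervals are not independent, and all 3 on chromosome 16 were in the cluster nearest FP325313.1. Shared regions were most numerous on chromosome 5, with 9, of which 5 were mitochondrial copies by name, and on chromosome 4, with 6.

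**Figure D4:**
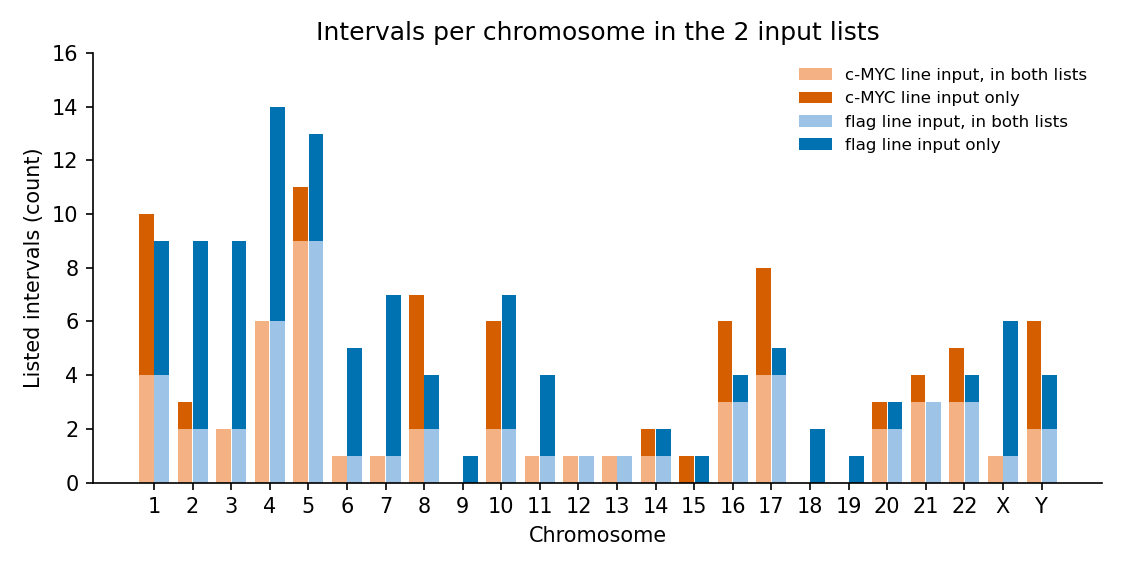
Listed intervals per chromosome (bars from 0), with the c-MYC line input on the left of each pair and the flag line input on the right. The pale part counts intervals in both lists and the dark part those in 1 list alone. The dark flag line bars on chromosomes 2, 3, 4 and 7 reach 7, 7, 8 and 6 intervals, where the c-MYC line alone had 1, 0, 0 and 0.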

How the data were processed

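Each library's intervals were analysed as deposited, 1 list per library. Per the submitters' processing notes, the tools were CASAVA (1.4), cutadapt (1.19), Bowtie2 (2.3.0) and MACS2 (2.1.1), and the build was GRCh38 (hg38). The sources used here do not give the calling threshold, any control library or how reads with several matches were treated. Per the file headers, the deposited signal is the pileup at the summit, the deposited fold is a ratio over the caller's background, and the deposited -log10 values are those of p and q. Multiplying the -log10 q by 10 and dropping the decimals gave the deposited score of each of the 86 and 119 input intervals. The nearest gene and TSS distance come from an Ensembl annotation of unnamed release.

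Intervals were paired at 1 bp of overlap in Python 3.11.15 with pandas 2.3.3 and SciPy 1.17.1, and the code was tested on simulated data. The implied background is (pileup + 1) / fold - 1. Gene bodies, mitochondrial copies, promoter windows and the microRNA came from RefSeq tables of GRCh38.p14. All 27 entries of the 3 fixed gene lists, of which 2 lists hold MYC, matched a symbol there. Shares carry exact Clopper-Pearson 95% intervals. No genome sequence was used. Long non-coding RNA genes are those of the deposited lincRNA, antisense, processed transcript and sense overlapping classes.

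The genes named are MYC, shared regions more than 2-fold from the median ratio, and the 8 highest pileups of each class. They also include intervals within 1 kb of a coding or long non-coding RNA TSS, intervals at an exon, promoter or transcript end of a coding gene, and members of the lists and name families. Other genes were named after their values were seen, as were the width bands, the 100 kb clusters, the relative depth and the kinds of shared region. Members and lists were chosen with earlier results of these data known. Alternatives were another overlap rule, filters on fold, pileup and q, other reference regions and TSS windows. An item withheld for evaluation is not reported here.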

Additional observations from a re-analysis of the deposited data

How the results depend on the processing

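Across 27 values, 61 of 69 alternatives stayed within the counting interval of the value, or within 1.5 times a count, and 8 did not. Keeping only pileups of 20 or more raised the flag line share to 57.3%. Setting ratios against the relative depth instead of the median took the regions more than 2-fold lower in the c-MYC line from 2 to 16. The 1 region more than 2-fold higher became 0 with that setting, with a median without mitochondrial copies and with a fold of 3. A 5 kb window took the TSS counts to 8 (c-MYC line) and 18 (flag line), and coding genes only left 1 in the c-MYC line. A -log10 q of at least 2 removed no interval. The relative depth, the RefSeq search for mitochondrial copies and the listing at the other depth were chosen after seeing the data. The relative depth rests on 1 recurring background value per list and assumes like fragment lengths and settings. No library could be left out, with 1 per group. No paired analysis was possible because each group holds 1 library.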
